A study of Homo sapiens with 24 samples.

Results

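Galunisertib alone was compared with no treatment in PLC/PRF/5, an established human hepatocellular carcinoma (HCC) cell line, to learn which genes the drug changes when no TGFβ is added to the culture. The members of the comparison are 6 of the 24 arrays of the series, chosen by their titles, 3 from cells given 10 µM galunisertib (LY2157299) and 3 from untreated control cells. All cells, controls included, were starved of serum overnight and RNA was taken after 16 h. The series also holds PLC/PRF/5 cells given 1 ng/mL TGFβ1 without or with 10 µM galunisertib, and the same 4 conditions in SNU-449, another HCC line. The 3 arrays of a group came from independent cultures of 1 line, the label Cy3 was read on 60K one-colour arrays, and the p-values below measure the spread between such cultures. A line of tumour cells in dish culture holds no stroma, vessel or immune cells, so the comparison says nothing about them.

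Galunisertib is a small molecule that occupies the ATP pocket of the type 1 TGFβ receptor, a kinase. TGFβ and related ligands bring type 2 and type 1 receptors together, the type 1 receptor phosphorylates SMAD2 and SMAD3, and these enter the nucleus with SMAD4 to raise or lower target genes, among them SMAD7 and SKIL, which feed back on the pathway. Hepatocytes make most plasma proteins, including clotting factors and their inhibitors, take up metabolites through solute carriers, and modify hormones and drugs, under transcription factors such as HNF4A, ONECUT1 and FOXA2. In the liver TGFβ is known both for arresting growth and for driving loss of the epithelial state.

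All 8 genes listed as markers of PLC/PRF/5 against SNU-449, ALB, TTR, AFP and EPCAM among them, were well above background on the 3 control and the 3 galunisertib arrays, and their summed signal was 448 to 704 times the 75th percentile of the array in the control arrays and 470 to 498 in the galunisertib arrays. The mean of their log2 levels was 3.95 to 4.04 in control and 3.55 to 3.73 with galunisertib, without overlap. Of 8 fibroblast markers, 7 (COL1A1, COL1A2, COL3A1, PDGFRA, DCN, LUM and ACTA2) were below background on all 6 arrays, and PDGFRB was the exception. Of 8 leukocyte and endothelial markers with a probe, 4 were above background on the 3 control arrays and 4 on the 3 galunisertib arrays, and PECAM1 and KDR were below it on all 6. The summed signal of the fibroblast markers was 1.97 to 2.14 times the 75th percentile in control and 1.23 to 1.60 with galunisertib, and that of the leukocyte and endothelial markers 0.827 to 1.01 and 0.791 to 0.964. The part of such signal in the results below was not tested. The arrays lay on 3 slides, 1 per replicate number, scanned on 1 day, and control and galunisertib each took the same position on every slide, so position and treatment cannot be told apart. The 75th percentile of signal was 145 on control replicate 1 and 201 to 257 on the other 5 arrays, and 44.9% to 50.2% of probes were well above background. In bulk RNA, fewer cells expressing a gene and less RNA per cell cannot be told apart.

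With galunisertib the sphingosine-1-phosphate exporter SPNS2, the surface receptors THBD and CXCR4 and the phosphatase DUSP5 rose, and the enzymes SULT2A1 and BDH1, the pseudokinase FAM20A and the carrier SLC17A4 fell. A large change was defined as more than 2-fold at an unadjusted limma p under 0.001, and 57 of 16680 genes tested had one, which is 0.342% of the genes. Of these, 26 were higher (0.156% of genes) and 31 were lower (0.186%). At a Benjamini-Hochberg adjusted limma p under 0.05, 611 genes were higher (3.66%) and 292 were lower (1.75%), 5.41% together. Their changes were small, with a median size of 0.48 on the log2 scale, and 361 of these genes lay between 0.5 and 1. The large changes lay at the ends of this range, from a rise of 1.53 to a fall of 2.67 on the log2 scale, and 9 of the 57 carry the name of a long non-coding RNA. That count is given without the share of such names among all genes tested, so it cannot be read as many or few. Near the threshold, LINC00239 rose by 1.00, LINC01447 fell by 1.01 and AKR1C1 fell by 1.02, while NEURL1B, ESPN and TMEM89 were just outside, at -0.997, -0.99 and 0.98.

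The number of adjusted calls depended on single arrays, the number of large changes less so. Without control replicate 1, control replicate 2, galunisertib replicate 1 or galunisertib replicate 3, the 903 adjusted calls became 480, 294, 375 and 403. With both arrays of replicate number 1, 2 or 3 left out they became 54, 52 and 2. The split between 611 higher and 292 lower moved with the scaling, to 456 and 332 after quantile normalization, 461 and 434 when only probes above background on every array set the percentile, and 18 and 18 with no scaling. Large changes numbered 48 to 84 over the same omissions. The 26 higher became 17 without both arrays of replicate number 1, and the 31 lower became 57 without galunisertib replicate 2. Of the 57 genes, 22 stayed large under each omission and 11 of those also under each processing alternative run for them, namely ACSL5, BATF3, BDH1, CXCR4, DUSP5, RIN1, SLC17A4, SPNS2, SULT2A1, THBD and TUBB3. Not every alternative could be run for all of these. ACSL5 and RIN1 were read only by spots near the edge and have no value with those spots left out. SULT2A1 was not above background on all 12 arrays and has no value where that was required. For 12 of the 57 the probe used lay near the edge of the array, 21.1% beside 18.3% of all genes tested, and AKR1C1, CREM and SPRY4 among these had another probe away from it.

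**Figure D1:**
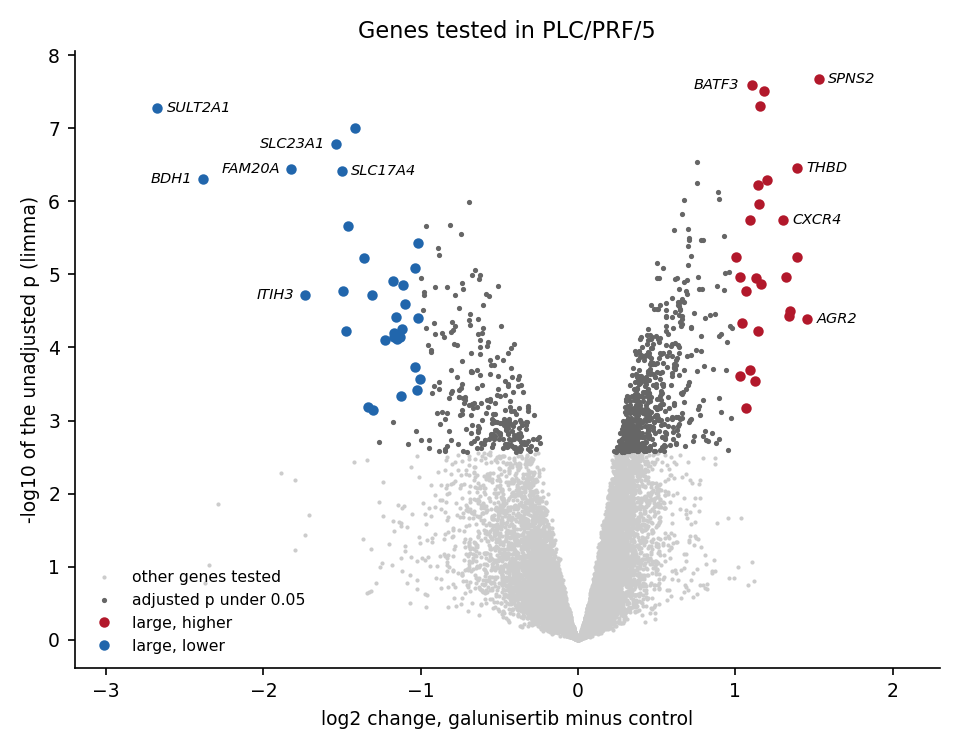
Each point is 1 of the 16680 genes tested, by its log2 change (x axis, galunisertib minus control) and the −log10 of its unadjusted limma p (y axis). Red and blue points are the 26 large rises and 31 large falls, dark grey points the other genes with an adjusted p under 0.05, and the falls reach 2.67 on the log2 scale while the rises end at 1.53.

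SPNS2, which exports the lipid mediator sphingosine-1-phosphate from cells, had the largest rise, ahead of AGR2, a dim gene whose rise was the larger with the floor at 50% of its value (1.55). Its level, given here and below as the log2 of signal relative to the 75th percentile of the array, was 1.10, 1.01 and 1.17 on control replicates 1 to 3 and 2.71, 2.48 and 2.68 on galunisertib replicates 1 to 3. The groups lay far apart and the arrays of a group close together, and SPNS2 rose 2.89-fold (log2 change 1.53 ± 0.10, SE, n = 3 per group, limma adjusted p = 0.000171), with differences of 1.61, 1.48 and 1.51 within the 3 slides. Of the other 13 tested genes of sphingosine-1-phosphate synthesis, breakdown and sensing, only the receptor S1PR3 passed the test, and it fell by 0.67. The kinases SPHK1 and SPHK2, which make the lipid, had changes of -0.12 and 0.13.

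THBD encodes thrombomodulin, the surface receptor that turns thrombin from a clotting enzyme into an activator of protein C. Its levels were -0.33, -0.23 and 0.02 in control and 1.31, 1.17 and 1.16 with galunisertib. Every galunisertib array was above every control array, as for 19.3% of all genes tested (7.76% had every galunisertib array below), and THBD rose 2.62-fold (log2 change 1.39 ± 0.13, limma adjusted p = 0.000587). PLAUR, the receptor of the plasminogen activator urokinase, was dim, at -2.88, -3.56 and -3.28 in control and -1.79, -1.80 and -2.09 with galunisertib. It rose by 1.35 ± 0.20, but by 0.47 with the normexp background correction, which adds a constant to every signal. CXCR4, the receptor of the chemokine CXCL12, was bright, at 2.24, 2.28 and 2.53 in control and 3.68, 3.56 and 3.72 with galunisertib, and rose by 1.30 ± 0.14. Protein C itself (PROC) fell by 0.33.

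Feedback genes of the ERK pathway rose in the majority. ERK, the last kinase of the cascade below growth-factor receptors, induces phosphatases and Sprouty proteins that damp it, and immediate early transcription factors. All gene lists were written with earlier results of these data known, so their counts are no independent test. Of 26 tested genes of the ERK list, 17 rose and none fell, where 3.66% and 1.75% of all genes did. Their median log2 change was 0.59, beside 0.05 over all genes tested. The median was 0.53 to 0.62 within the 3 slides. The only value below zero was that of DUSP10, at -0.40, and DUSP1 had a change of 0.00.

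DUSP5, a nuclear phosphatase of ERK, was at -0.69, -0.60 and -0.34 in control and at 0.92, 0.73 and 0.90 with galunisertib. The groups did not overlap, and DUSP5 rose 2.63-fold (log2 change 1.39 ± 0.17, limma adjusted p = 0.00235). The phosphatases DUSP6 and DUSP4 rose by 0.90 and 0.63, and the inhibitors SPRY4, SPRY1 and SPRY2 by 1.13, 0.75 and 0.60. Among transcription factors EGR4, EGR1, FOSL1 and FOS rose by 1.18, 0.66, 0.64 and 0.43, and among ligands of the EGF receptor HBEGF rose by 0.95. MYC, a target of many growth signals, had a change of 0.37 that did not pass. RIN1, an effector of RAS, was very even, at 1.40, 1.29 and 1.30 in control and 2.51, 2.45 and 2.52 with galunisertib.

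The count of 17 became 7 with arrays scaled to their median and 4, 6 and 0 with both arrays of replicate number 1, 2 and 3 left out, with none falling. With spots near the edge of the array left out, 20 genes of the list could be tested, and 12 rose and 0 fell. Members read only by such spots included RIN1, EGR4 and DUSP6. The brighter probe of SPRY4 also lay there, while its second, dimmer probe lay away from the edge and gave a log2 change of 0.07.

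Genes induced by cAMP and those of NF-kB also held rises. RGS2, which limits signalling by G proteins, was at -1.18, -1.02 and -0.91 in control and at 0.12, 0.05 and 0.31 with galunisertib, and rose by 1.20 ± 0.11. CREM, a transcription factor of the cAMP response, rose by 1.03 on its brighter probe, which lies near the edge of the array, and had a change of -0.63 with no call on the other probe, so its direction is uncertain. In the same list of 13 tested genes, 5 rose and 2 fell, where 3.66% and 1.75% of all genes did. G6PC1 and PCK1, the enzymes that finish and start gluconeogenesis, fell by 0.89 and 0.88. NR4A1, NR4A2 and NR4A3, which cAMP induces, had changes of 0.07, 0.20 and 0.05. The 5 became 2 without control replicate 2 and 3 without galunisertib replicate 1, 2 or 3. They became 2 with arrays scaled to their median, and 1, 1 and 0 with both arrays of replicate number 1, 2 and 3 left out.

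Of 17 tested NF-kB and inflammatory genes, 6 rose and none fell, where 3.66% and 1.75% of all genes did. The median of the 17 was 0.22. LIF, a cytokine of the IL-6 family, was at -1.16, -1.48 and -1.18 in control and at -0.05, -0.14 and -0.15 with galunisertib, and rose by 1.16 ± 0.15, while its second probe was below background. SOD2, CXCL2, CCL20 and ICAM1 rose by 0.71, 0.70, 0.64 and 0.56, and CXCL8 and NFKBIA had changes of 0.04 and -0.02. The second probe of CXCL2 gave a smaller change, 0.23. IL6, IL1B and TNF were below background on all 6 arrays. The 6 became 2 without control replicate 2 and 3 without galunisertib replicate 1 or 3. They became 1 with arrays scaled to their median, and 0, 1 and 0 with both arrays of replicate number 1, 2 and 3 left out.

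Other large rises were of single genes. AGR2, a disulfide isomerase of the endoplasmic reticulum, rose by 1.46 from -4.13 (the floor), -3.47 and -3.18 to -1.97, -1.95 and -2.50, a difference that ranged from 0.69 to 2.16 between slides. ASB2, a subunit of a ubiquitin ligase, and CORO2B, an actin-binding protein, rose by 1.34 and 1.32. ACSL5, an acyl-CoA synthetase, rose by 1.14, the vessel ligand ANGPT2 by 1.14, the tubulin TUBB3 by 1.09 and the transcription factor BATF3 by 1.11. CDKN2B, an inhibitor of cell cycle kinases, rose by 1.03 from a dim level, and 1 of its 3 control arrays was not above background.

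**Figure D2:**
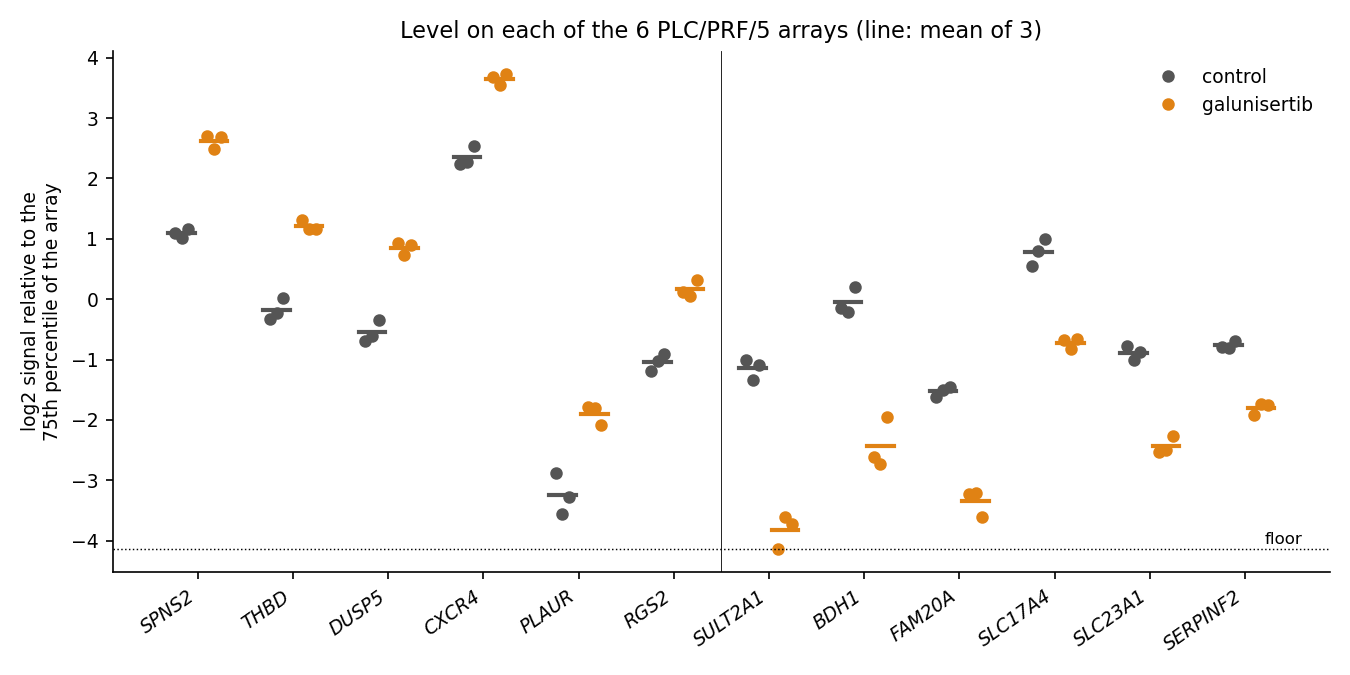
Level of 12 genes on each of the 6 arrays (y axis, log2 of signal relative to the 75th percentile of the array, grey control, orange galunisertib, line the mean of 3 arrays, dotted line the floor). The 6 genes on the left rose and the 6 on the right fell, no gene has overlapping groups, and SULT2A1 reached the floor on 1 galunisertib array.

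The largest falls exceeded the largest rises, and were of SULT2A1, BDH1, FAM20A and ITIH3. SULT2A1, the sulfotransferase of steroids and bile acids, had the largest, from -1.01, -1.34 and -1.08 in control to -4.13, -3.62 and -3.72 with galunisertib. The first of these 3 values is the floor and 2 of the 3 arrays were above background, so the log2 change of -2.67 ± 0.20 (limma adjusted p = 0.000178) rests partly on the floor. With the floor at 200% of its value SULT2A1 fell by 1.99 and with normexp by 1.08, less than BDH1, which fell by 2.38 and 1.39 there. BDH1, the mitochondrial enzyme that interconverts the ketone bodies acetoacetate and 3-hydroxybutyrate, was at -0.14, -0.21 and 0.20 in control and at -2.62, -2.73 and -1.95 with galunisertib. It was above background on all 6 arrays and fell by 2.38 ± 0.22 on the log2 scale, to a level 5.21-fold lower (limma adjusted p = 0.000665), with differences of -2.48, -2.52 and -2.15 within the slides.

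BDH1 was the only large fall among 18 tested genes of ketone body and fatty acid metabolism, and ACSL5, at 1.14, the only large rise. Of the 18 genes 3 fell and 2 rose, where 1.75% and 3.66% of all genes did. The median log2 change of all 18 was -0.17. SLC16A1, which carries ketone bodies and lactate across the membrane, fell by 0.61, the acetyl-CoA hydrolase ACOT12 fell by 0.88 to below background (at least 1.67-fold lower), and the fatty acid oxidation enzyme ACADVL rose by 0.36. CPT1A, the entry enzyme of mitochondrial fatty acid oxidation, and ACAT1 had changes of -0.40 and -0.46 that did not pass. OXCT1, which opens ketone body use, was above background on none of the 6 arrays.

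FAM20A, a secretory pathway pseudokinase that activates the kinase FAM20C, was at -1.62, -1.51 and -1.45 in control and at -3.23, -3.21 and -3.61 with galunisertib. Its groups were well apart, and it fell by 1.82 ± 0.16 on the log2 scale, 3.54-fold (limma adjusted p = 0.000587), or by 0.78 with normexp. A second probe of FAM20A was near the floor on all arrays. Among the 5 related genes tested, FAM20B and FAM20C had changes of -0.14 and -0.25, and FJX1 rose by 0.38.

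Of 12 tested solute carriers of the hepatocyte and kidney tubule, 4 fell and none rose, where 1.75% and 3.66% of all genes did. The median log2 change of the 12 was -0.43, beside 0.05 over all genes tested. These 4 were all large changes, and the list was written with earlier results known. The count is therefore no independent test of the family. SLC17A4, an organic anion transporter, was at 0.55, 0.80 and 1.00 in control and at -0.68, -0.82 and -0.65 with galunisertib, and fell by 1.50 ± 0.14. The vitamin C transporter SLC23A1 fell by 1.54, the sodium-linked sugar transporter SLC5A9 by 1.47 and the phosphate and urate transporter SLC17A1 by 1.31. SLC2A2, the main glucose transporter of the liver, had a change of -0.55 that did not pass, and the urate transporter SLC2A9 a change of -0.10. The 4 became 2 and 0 with both arrays of replicate number 2 and 3 left out.

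Among 15 tested genes of drug and steroid metabolism 3 fell and 1 rose, where 1.75% and 3.66% of all genes did. The falls were of SULT2A1, the alcohol dehydrogenase ADH6 (by 1.49) and AKR1C1 (by 1.02), and CYP1B1 rose by 0.64. AKR1C1 has near-identical family members, among them AKR1C2, whose RNA its probes may also bind. The cytochromes CYP1A1, CYP1A2, CYP2B6 and CYP3A5 had changes of 0.19, -0.04, -0.08 and 0.23. Other large falls included the apelin receptor ligand APELA (by 1.41, with a change of -0.36 and no call on a second probe), the sugar-binding LGALS2 (by 1.36), the junction protein CLDN14 (by 1.23), the cytochrome CYP4F3 (by 1.18), the matrix protein SPON2 (by 1.17) and the pro-apoptotic BMF (by 1.17, with a change of -0.04 and no call on a second, dim probe). The long non-coding lnc-INADL-2, read only near the edge, fell by 1.30.

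Plasma proteins fell in part. Of 28 tested secreted proteins of the hepatocyte 6 fell and none rose, where 1.75% and 3.66% of all genes did. Their median log2 change was -0.16. ALB, serum albumin, was at 0.60, 0.34 and 0.52 in control and at -0.64, -0.39 and -0.40 with galunisertib, and fell by 0.97 ± 0.15 (limma adjusted p = 0.00637). ITIH1, TTR, APOH and SERPINA6 fell by 0.95, 0.69, 0.59 and 0.46, and ITIH3, like ITIH1 a heavy chain of inter-alpha-trypsin inhibitor and read only near the edge of the array, fell from -2.21, -2.57 and -2.41 to below background, so at least 3.03-fold. APOB, APOE and SERPINA1 had changes of -0.14, -0.16 and -0.12, and ITIH2 and ITIH4 of 0.24 and 0.11. The 6 became 1, 0 and 0 with both arrays of replicate number 1, 2 and 3 left out, and 1 with arrays scaled to their median.

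Clotting and fibrinolysis genes moved both ways, with 5 of 25 higher and 4 lower, where 3.66% and 1.75% of all genes were. Their median was -0.27. SERPINF2, the plasma inhibitor of plasmin (alpha-2-antiplasmin), was at -0.79, -0.81 and -0.70 in control and at -1.93, -1.74 and -1.75 with galunisertib. The groups were clearly separate, and SERPINF2 fell by 1.04 ± 0.13, 2.05-fold (limma adjusted p = 0.00302), close to the 2-fold limit. Its change was -0.94 with arrays scaled to their median, -0.52 with normexp and -0.98 without galunisertib replicate 1. Kininogen (KNG1) and heparin cofactor II (SERPIND1) fell by 1.15 and 1.04, and PROC was the fourth to fall.

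The 5 that rose in this list were surface receptors or secreted regulators, and THBD and PLAUR have been given above. PLAT, tissue plasminogen activator, was below background in control and rose at least 1.74-fold, TFPI, the inhibitor of tissue factor, rose by 0.62, and F3, tissue factor, by 0.36. The fibrinogen chains FGA, FGB and FGG had changes of -0.38, -0.34 and -0.27 that did not pass. Both counts became 1 with both arrays of replicate number 1 or 2 left out, and 0 without those of number 3.

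**Figure D3:**
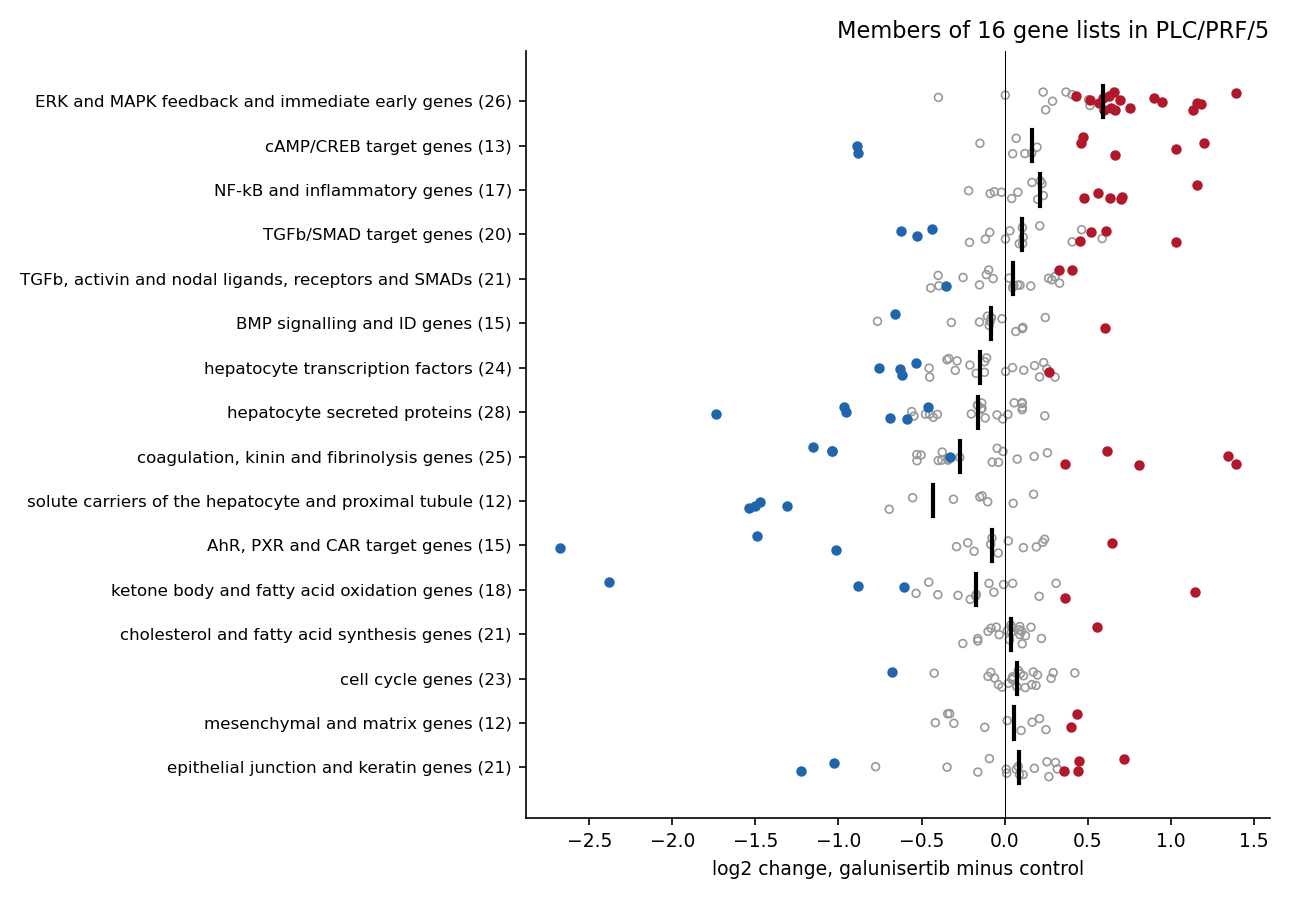
Log2 change (x axis, galunisertib minus control) of each tested member of 16 gene lists, with the number of members in brackets. Filled red and blue points passed an adjusted limma p under 0.05, open points did not, and black bars are medians, which run from -0.43 for solute carriers to 0.59 for ERK feedback genes.

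Most hepatocyte transcription factors did not pass the test. ONECUT1, at 4.71, 4.72 and 4.69 against 4.10, 4.02 and 4.11, fell by 0.63 ± 0.08, FOXA2 rose by 0.27 ± 0.07 (limma adjusted p = 0.0452), and HNF4A had a change of -0.45 ± 0.18 (limma adjusted p = 0.168). HNF4G fell by 0.76 to below background (at least 1.59-fold lower), CREB3L3 by 0.61 and FOXA3 by 0.53. Of 24 tested factors 4 fell and 1 rose, where 1.75% and 3.66% of all genes did. The median was -0.15, and no factor passed with arrays scaled to their median. The 4 became 2 without control replicate 2 or galunisertib replicate 3, and FOXA2 no longer passed with any 1 of the 6 arrays left out.

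Genes known to be induced by TGFβ through SMADs moved in both directions. The feedback inhibitors SKIL and SMAD7 fell by 0.63 ± 0.11 and 0.44 ± 0.11 (limma adjusted p = 0.0096 and 0.0409). SKIL was at -0.50, -0.53 and -0.28 in control and at -1.04, -1.24 and -0.90 with galunisertib, and SMAD7 at 1.08, 0.94 and 1.06 against 0.54, 0.71 and 0.52, so neither gene had overlapping groups. The collagen COL4A1 fell by 0.52, while CDKN2B, BHLHE40, TGIF1 and TGM2 rose by 1.03, 0.61, 0.52 and 0.45. Over 20 tested genes of the list 4 rose and 3 fell, where 3.66% and 1.75% of all genes did, and the median was 0.11. These counts became 1 and 0 with arrays scaled to their median. They became 2 and 1 without control replicate 1, control replicate 2 or galunisertib replicate 1. Among 21 ligands, receptors and SMADs, SMAD3 and the ligand GDF15 rose by 0.33 and 0.40 and the activin binder FST fell by 0.35. TGFB1, TGFBR1 and TGFBR2 had changes of 0.26, -0.11 and 0.33 that did not pass. In the BMP branch BMP6 rose by 0.60 and the receptor BMPR2 fell by 0.66, to below background (at least 1.55-fold lower), of 15 genes tested.

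The remaining lists held few changes, and the counts in them moved with the total of adjusted calls given above. By those calls 3.66% of all genes tested were higher and 1.75% lower. Of 23 cell cycle genes AURKA alone passed and fell by 0.68, with a median of 0.07. Of 21 tested genes of cholesterol and fatty acid synthesis 1 rose and none fell, with a median of 0.04 that was -0.03 with quantile normalization. Among 21 epithelial genes the keratins KRT8, KRT23 and KRT18 and CLDN3 rose, by 0.72, 0.45, 0.44 and 0.36. The probe used for KRT8 lay near the edge of the array, and its other probes, away from it, gave 0.17 and 0.48. CLDN14 and BCAM fell, the latter to below background (at least 1.99-fold lower). The junction protein OCLN had a change of 0.01 on its brighter probe and -1.65 on its other one, both near the edge of the array. In the mesenchymal list of 12 tested genes VIM rose by 0.40 and SNAI1 by 0.44.

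Of 15 tested interferon genes 2 rose and 1 fell: MX1 was among the rises, from below background (at least 1.42-fold), and OASL fell to below background (at least 2.01-fold). TRIB3 and CHAC1 rose by 0.44 and 0.50 among 22 genes of stress responses, and CCN1 and F3 by 0.43 and 0.36 among 14 TEAD and YAP targets. The second probe of CHAC1, near the edge of the array, gave 0.29. All 8 markers of PLC/PRF/5 against SNU-449 had changes below zero, from -0.97 to -0.09, with a median of -0.26 (-0.16 with arrays scaled to their median). For 4 of them every galunisertib array was below every control array, as for 7.76% of all genes tested. Of these 8, ALB and TTR passed. With galunisertib added to TGFβ the median change of the 8 was 0.31. In that comparison 4 of the 8 were higher and 0 lower at an adjusted limma p under 0.05, where 25.8% and 13.3% of all genes were. With galunisertib alone none of 5 tested markers of SNU-449 passed, and PDGFRB, the only tested fibroblast marker, fell by 0.68. None of the 4 tested leukocyte and endothelial markers passed.

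The 250 bases before the transcription start were searched on both strands for a SMAD element (CAGAC), an AP-1 site (TGANTCA), a cAMP response element (TGACGTCA) and a TEAD site (GGAATG), in RefSeq promoters of GRCh38.p14, which matched 16 of the 26 large rises and 19 of the 31 large falls. The SMAD element was in 43.8% of the rises, 52.6% of the falls and 43.7% of the 11376 tested genes with a promoter, and the AP-1 site was in 12.5%, 5.26% and 6.14%. The cAMP response element was in 6.25% of the rises, none of the falls and 3.23% of genes. Among the rises that is 1 gene, CREM, whose direction is uncertain. The TEAD site was in 12.5%, 15.8% and 13.1%. These are matches of letters and a description only, and promoters of 1 chromosome were left out of the search. A pair of promoters of genes counted as rises is shown, with the AP-1 and the cAMP response element in capitals. A pair of promoters of falls is shown with the SMAD element in capitals. They let the reader see where the matches lie. PLAUR is at chr19:43670170-43670419 (minus strand, match starting 186 bases before the start), CREM at chr10:35195652-35195901 (plus strand, 50 bases before, 1 of its 7 promoters), BDH1 at chr3:197573344-197573593 (minus strand, 134 bases before, 1 of 2 promoters) and SLC17A1 at chr6:25832053-25832302 (minus strand, 209 bases before).
PLAUR: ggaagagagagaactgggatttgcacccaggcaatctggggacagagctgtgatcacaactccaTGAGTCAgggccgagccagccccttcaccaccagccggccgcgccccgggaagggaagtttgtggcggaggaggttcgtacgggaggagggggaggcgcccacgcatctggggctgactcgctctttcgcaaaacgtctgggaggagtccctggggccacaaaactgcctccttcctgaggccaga
CREM: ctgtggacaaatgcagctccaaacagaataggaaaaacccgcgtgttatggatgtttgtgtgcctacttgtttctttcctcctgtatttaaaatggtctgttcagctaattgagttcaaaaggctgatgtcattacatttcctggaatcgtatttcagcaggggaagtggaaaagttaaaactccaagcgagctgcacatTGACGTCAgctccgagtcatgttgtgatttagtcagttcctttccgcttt
BDH1: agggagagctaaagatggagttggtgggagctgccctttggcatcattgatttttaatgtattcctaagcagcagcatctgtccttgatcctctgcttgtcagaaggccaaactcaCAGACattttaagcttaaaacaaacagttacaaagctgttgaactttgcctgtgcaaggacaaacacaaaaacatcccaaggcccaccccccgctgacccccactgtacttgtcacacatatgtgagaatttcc
SLC17A1: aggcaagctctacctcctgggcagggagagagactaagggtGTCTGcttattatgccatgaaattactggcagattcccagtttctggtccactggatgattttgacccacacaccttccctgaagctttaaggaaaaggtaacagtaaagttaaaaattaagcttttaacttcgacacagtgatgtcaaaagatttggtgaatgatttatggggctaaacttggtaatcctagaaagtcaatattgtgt

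The 57 genes were then read in the 6 PLC/PRF/5 arrays that had TGFβ. These arrays entered none of the changes that chose the genes, but they did enter the probe filter and the estimate of spread behind the p-values. On every slide the PLC/PRF/5 arrays with galunisertib shared a column and those without it another, with or without TGFβ. Array column and galunisertib therefore cannot be told apart in these arrays either. With only the 6 arrays without TGFβ in the fit, 50 of 15870 genes had a large change, and 49 of them were among the 57. With galunisertib added to TGFβ, all 26 rises were again higher, against 56.2% of all genes, and all 31 falls were again lower, against 43.8%. Of the rises 24 and of the falls 28 passed an adjusted limma p under 0.05 in that direction, where 25.8% and 13.3% of all genes did, and the exceptions were ARHGAP40, CDKN2B, lnc-INADL-2, ZG16 and AKR1C1. The median log2 change went from 1.15 to 1.69 for the rises and from -1.18 to -1.43 for the falls. Large changes shared in direction numbered 45, which is 78.9% of the 57 large changes of galunisertib alone and 8.72% of the 516 of galunisertib added to TGFβ (3.09% of all genes).

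The size of the change differed with TGFβ, at an adjusted limma p under 0.05 for the difference, in 15 of the 57, where 8.76% of all genes did, and in 14 of these it was larger with TGFβ. The values without TGFβ chose the genes, which by itself favours a smaller change with TGFβ. SPNS2 rose by 1.53 alone and by 2.67 with TGFβ, DUSP5 by 1.39 and 2.50, and ANXA1, a phospholipid-binding protein, by 1.13 and 2.45. FAM20A fell by 1.82 alone and by 3.28 with TGFβ, BMF by 1.17 and 3.24, and PRRT2, a membrane protein of synapses, by 1.02 and 3.69. SULT2A1 was the exception, with a fall of 2.67 alone and 1.24 with TGFβ. The 15 became 6 with arrays scaled to their median.

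**Figure D4:**
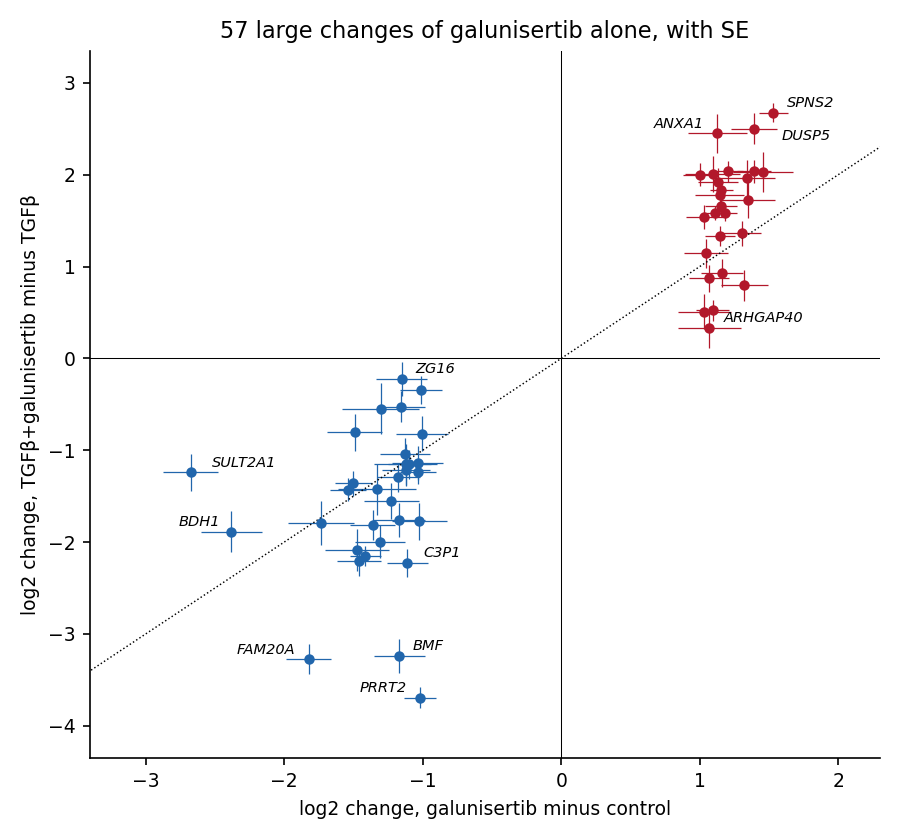
Log2 change of the 57 large changes for galunisertib minus control (x axis) and for TGFβ+galunisertib minus TGFβ (y axis), with the SE of each, from the same limma fit on different arrays. Red points rose and blue points fell with galunisertib alone, all 57 lie on the same side of zero on both axes, and SULT2A1 lies above the dotted line of equal change while FAM20A, BMF and PRRT2 lie below it.

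Beside these, the change made by TGFβ alone can be set, which shares the 3 control arrays and is given for its values only. SPNS2 fell by 1.07 with TGFβ, DUSP5 by 1.07, and SPRY1 by 1.02. FAM20A rose by 2.02, SKIL by 1.63, BMF by 2.20 and SMAD7 by 0.80. BDH1, CXCR4, SLC23A1 and SERPINF2 did not pass with TGFβ, with values of 0.43, 0.01, -0.02 and 0.18. ALB fell with TGFβ too, by 0.94, and rose by 0.49 with galunisertib added to it, so its direction under galunisertib was opposite without and with TGFβ (difference 1.45 ± 0.21, limma adjusted p = 0.00351).

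**Figure D5:**
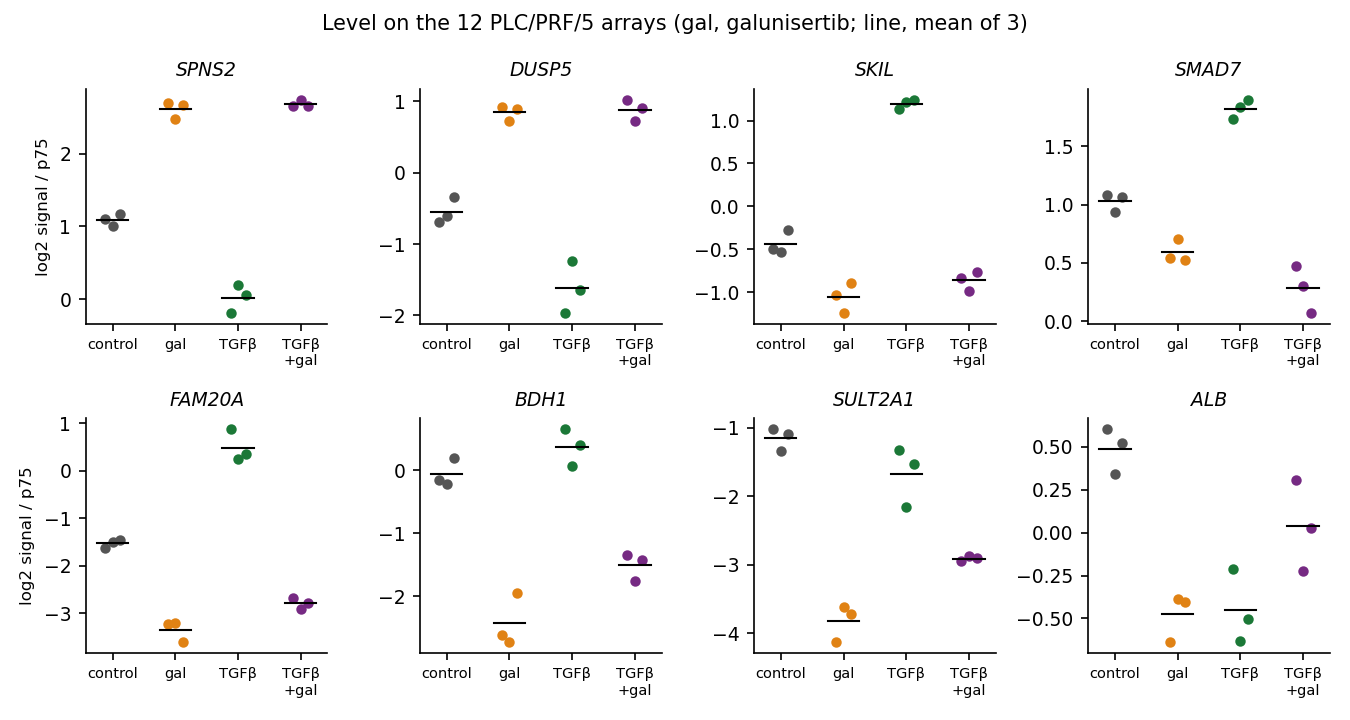
Level (y axis, log2 of signal relative to the 75th percentile, own scale in each panel) of 8 genes on the 12 PLC/PRF/5 arrays, by treatment, with the mean of 3 as a line. For SPNS2 and DUSP5 the galunisertib arrays lie above control and TGFβ arrays below, for SKIL, SMAD7 and FAM20A the reverse, and ALB is lower in both.

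In SNU-449, 20 of the 26 rises and 13 of the 31 falls could be tested. There, 11 of the 20 were higher and 7 of the 13 lower with galunisertib, and the median log2 changes were 0.11 and -0.06. The change differed between the lines, at an adjusted limma p under 0.05, in 11 of the 20 and 7 of the 13, where 4.87% of all genes did, and apart from SLC17A1 their changes were larger in PLC/PRF/5, a direction that the choice of genes in PLC/PRF/5 favours. BDH1 had a change of -0.16 in SNU-449, THBD of 0.08, SPNS2 of -0.38 and LIF of -0.69. SLC17A1 went the other way, with 1.33 in SNU-449 beside -1.31 in PLC/PRF/5. DUSP5, RIN1 and ASB2 had changes of 1.28, 1.13 and 1.09 there, beside 1.39, 1.16 and 1.34 in PLC/PRF/5. FAM20A, SULT2A1, SLC17A4 and SERPINF2 were too dim in SNU-449 to be compared.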

How the data were processed

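RNA from 24 cultures was read on one-colour Agilent arrays; per the labels, the authors labelled it with Cy3 and deposited the Feature Extraction (version 10.7.3.1) scanner files, whose processed intensity is background-subtracted and not scaled between arrays, and a table of log2 values centred on the median of each probe, used as an alternative. Each array was scaled to the 75th percentile of its processed intensity, a floor was set at 5.70% of it (log2 -4.13, the median over arrays of the weakest spot well above background) and log2 was taken. Probes well above background on all 3 arrays of a PLC/PRF/5 group were tested, 1 per gene (the brightest). Names came from RefSeq for 31100 of 58201 probes and from LNCipedia names in the files for 10719, and 16382 had none. limma 3.58.1 (R 4.3.3) was fitted to the 12 PLC/PRF/5 arrays, or all 24 for the difference between lines, with Benjamini-Hochberg adjustment. The fit was tested on simulated data. normexp (offset 50) used the median signal and background. The 25 gene lists (499 genes, 386 tested, 8 without a probe) and the genes compared were chosen with earlier results of these data known. Genes were named by a rule: the study's factors, the largest 10 rises and falls above background on all 6 arrays, the largest 4 per list, and genes large in both comparisons or below background in 1 group; other list members and genes are given for contrast and were chosen after their values were seen. The array number limits the precision. Some members of the lists are not reported here.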

Additional observations from a re-analysis of the deposited data

Results flagged for a closer look

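Among the 57 large changes, a gene is listed here where galunisertib's change differed between conditions by more than 1 on the log2 scale with an adjusted limma p under 0.05 for the difference. The galunisertib arrays without TGFβ in PLC/PRF/5 enter every difference and also chose the genes. The rise was larger with TGFβ than without it by 1.32 for ANXA1, 1.11 for DUSP5 and 1.14 for SPNS2. The fall was larger with TGFβ, so that the difference was -2.68 for PRRT2, -2.07 for BMF, -1.45 for FAM20A and -1.12 for C3P1, a pseudogene of complement C3. For SULT2A1 the difference was 1.43, a smaller fall with TGFβ.

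The rise in PLC/PRF/5 exceeded the change in SNU-449 by 1.91 for SPNS2, 1.85 for LIF, 1.44 for BATF3, 1.39 for PLAUR, 1.31 for THBD, 1.29 for ACSL5, 1.28 for SPRY4, 1.20 for lnc-MYBBP1A-2 and 1.14 for CORO2B. The fall in PLC/PRF/5 gave a difference from SNU-449 of -2.64 for SLC17A1, -2.22 for BDH1, -1.68 for CLDN14, -1.60 for lnc-RP11-728F11.4.1-1, -1.52 for AKR1C1 and -1.35 for BCAM. ACSL5, ANXA1 and PRRT2 were read only by spots near the edge of the array. The probes used for SPRY4 and AKR1C1 also lay there, and their other probes, away from it, gave log2 changes of 0.07 and -0.89 for galunisertib alone.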

How the results depend on the processing

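Of the 57 genes with a large change, 56 kept their direction under every alternative and omission run for them; the exception was CREM, whose log2 change was -0.63 with spots near the edge left out, where its other probe is used. The 57 large changes (26 higher, 31 lower) became 15 (10 and 5) with normexp, whose offset shrinks the changes of dim probes by construction. They became 34 (16 and 18) at the same thresholds with a two-sample t-test that took the spread of each gene alone. The methods of the study also used a random variance model, which that t-test left out. The 31 lower became 20 with probes well above background on all 12 arrays, which tests fewer genes. The 903 adjusted calls became 92 with arrays scaled to their median, 36 with no scaling, 382 with normexp and 1439 with the floor at 200% of its value. They became 186 with only the 6 arrays and 160 with that t-test after Benjamini-Hochberg adjustment. The cause was not tested. Scaling to the median moved the median change of all genes from 0.05 to 0.14. Over left-out arrays and replicate numbers, large changes numbered 48 to 84, higher ones 17 to 30, lower ones 24 to 57 and adjusted calls 2 to 785. The large changes that differed between lines (41, genes too dim in SNU-449 included) became 20 with median scaling and 24 with probes above background on all 12 arrays, and those that differed with TGFβ (15) became 6 with median scaling. With the replicate number as a block, large changes numbered 57, of which 54 were shared, and adjusted calls 652. Same-numbered control and galunisertib arrays deviated together with r = 0.01, 0.23 and 0.23 and control replicate 1 correlated best with galunisertib replicate 2 (r = 0.12), so the numbers were not taken to pair the samples. The signs of list medians near zero changed in 9 of the 25 lists in at least 1 setting. Dim probes limit rises and falls: 16 of the 57, both directions together, had at least 1 of the 6 arrays not above background.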
